A study of Homo sapiens with 16 samples.

Results

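The RNAs described here are the long intergenic noncoding RNAs (LINC genes) that the array names by an official LINC symbol, in 2 myeloma cell lines treated with inhibitors of EZH2 and G9a. Every probe whose gene symbol was LINC followed by digits was taken, and the brightest probe over the 16 arrays stood for its gene. A gene was a member when the scanner software had marked that probe as well above background on each of the 2 arrays in 1 or more of the 8 groups. Of 133 LINC symbols, carried by 228 probes, 54 were members and 79 were not. Both lines, RPMI-8226 and MM.1S, were long ago established from patients with multiple myeloma, a cancer of plasma cells. Cells of each line were given the solvent DMSO, GSK126 at 1 µM, UNC0638 at 1 µM, or both inhibitors at 1 µM each (GSK126 + UNC0638), for 6 days, with 2 biological replicates per group and 1 array per replicate. GSK126 inhibits EZH2, which places trimethylation on H3K27, and UNC0638 inhibits G9a, which methylates H3K9. No gene was deleted or introduced in any group, and the DMSO cells of the same line are the control for each treatment.

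LINC genes are transcribed and often spliced and polyadenylated like messenger RNA, but lie between protein-coding genes and were named because no protein was known for them. Some act on the transcription of the gene beside them, some bind chromatin complexes such as the one that holds EZH2, some are precursors of microRNAs or small nucleolar RNAs, and a few were later found to encode small proteins. Many are transcribed in few tissues. H3K27 trimethylation and H3K9 dimethylation are repressive marks that lie over many genes kept silent in a given cell type.

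All 7 plasma cell markers looked up, among them SDC1, TNFRSF17 and IRF4, were above background on all 8 arrays of each line, and the B cell marker PAX5 was on none. Of the markers of other lineages, CD3D, CD2 and CD14 were above background on all 16 arrays and ALAS2 on none. The share of spots well above background ranged from 46.5% to 52.8%, and no spot was saturated. Each line may have been hybridised on its own slide, in which case slide and line cannot be told apart. A level here is the log2 intensity of a probe minus the 75th percentile of its array, so 0 marks that percentile, and levels of different probes are not compared. A change is a difference of group means on that log2 scale and was called when the adjusted p of limma, over all probes kept in the line, was under 0.05.

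Between 39 and 46 of the 54 members were above background on an array. In RPMI-8226 cells 44 members passed the filter on dim probes and were tested, in MM.1S cells 45, and 35 passed in both lines. Of the rest, 9 passed only in the former line and 10 only in the latter. The set is therefore made up of 32 RNAs seen on all 16 arrays and 22 seen in some groups. Just inside the rule, LINC00184, LINC00302, LINC00313, LINC00328 and LINC00421 were above background on both arrays of exactly 1 group. Just outside it, LINC00487 was above background on 4 arrays but never on both of a group, and 62 of the other symbols on none. Where a member was above background on both arrays of a group, the median SD between these 2 arrays was 0.14 (312 pairs of arrays), against 0.58 where it was above background on 1 of them (49 pairs). 1 member, whose probe lies on chromosome Y, is included in the counts and its values are not given.

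A RefSeq entry was found for 50 of the 54 members by accession, symbol or synonym, 21 of them now under another symbol. No match was found for LINC00086, LINC00087, LINC00315 and LINC00328, which does not show that RefSeq lacks them, and their class is not known here. Of the 50 matched, RefSeq classes 44 as long noncoding RNAs and 1 as a transcribed pseudogene, and 5 are now protein-coding. These 5 are LINC00085 (SPACA6, a protein of the sperm head), LINC00094 (BRD3OS, opposite BRD3), LINC00176 (C20orf204), LINC00341 (SYNE3, nesprin-3 of the nuclear envelope) and LINC00493 (SMIM26, a small membrane protein). Others with a second name are LINC00152 (CYTOR), LINC00338 (SNHG20, a small nucleolar RNA host gene), LINC00478 (MIR99AHG, a microRNA host gene), LINC00461 (MIR9-2HG, another microRNA host gene), LINC00340 (CASC15) and LINC00403 (SOX1-OT, transcribed across SOX1).

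In RPMI-8226 cells with DMSO LINC00493 had a mean level of 5.49 ± 0.06 (SD, n = 2), and in MM.1S cells one of 5.11 ± 0.01. LINC00152, reported to bind EZH2, stood at 4.93 ± 0.02 and 4.99 ± 0.01, and its difference between the lines was not called. LINC00339 stood at 1.59 ± 0.13 in RPMI-8226 cells and LINC00426 at 1.74 ± 0.16 in MM.1S cells.

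The lines differed most in members that were at or near background in 1 of them. Compared between the DMSO groups in 1 limma fit over all 16 arrays, 16 of the 54 members were higher in RPMI-8226 cells and 12 were higher in MM.1S cells. Of all 26931 probes tested, 28.4% were higher in RPMI-8226 cells and 29.3% lower, so the members were called about as often as other probes. With a normexp background correction, which moved the median of all probes up by 0.15, the split was 23 and 11. It was 12 and 14 without RPMI-8226 DMSO replicate 2, and 11 and 13 or 12 and 12 without MM.1S DMSO replicate 1 or 2. LINC00470 read -1.03 and -0.63 on the RPMI-8226 DMSO arrays and -6.72 and -6.64 on those of MM.1S cells, where it was not well above background, so it was at least 15.5-fold higher in RPMI-8226 cells (limma adjusted p = 1.30e-09). Such a bound sets the brighter group against whichever was higher on each dim array, the signal of the dim probe or the lowest signal there that was above background. LINC00327 was at least 2.71-fold higher in RPMI-8226 cells and LINC00281 higher by 2.07 ± 0.50 (SE). LINC00482 and LINC00094 were both higher in RPMI-8226 cells by 1.46. LINC00052 read -4.71 and -2.05 in RPMI-8226 cells and was at least 2.64-fold higher there (limma adjusted p = 0.0452), and leaving out any 1 of 9 arrays ended the call, at an adjusted p between 0.0584 and 0.334.

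In the other direction, LINC00426 read 1.63 and 1.85 in MM.1S cells and -4.90 and -3.90 in RPMI-8226 cells, 1 of the latter above background, a difference of -6.15 ± 0.47 (limma adjusted p = 1.35e-06). LINC00246A read -0.29 and -0.46 in MM.1S cells, where it was at least 16.2-fold higher than in RPMI-8226 cells. LINC00324, which lies beside CTC1, was at least 4.47-fold and LINC00403 at least 4.37-fold higher in MM.1S cells. LINC00494 was above background in both lines and stood at -1.73 ± 0.02 in RPMI-8226 cells against 0.90 ± 0.01 in MM.1S cells. LINC00472 was at least 1.27-fold higher in MM.1S cells, with 1 MM.1S array above background, and was not called with normexp (adjusted p = 0.279). These RNAs were chosen for their large called differences, so the lack of overlap between their RPMI-8226 and MM.1S arrays adds no support. If each line lay on its own slide, slide and line cannot be told apart in any of these differences. In bulk RNA, fewer cells that express a gene and less of its RNA per cell cannot be told apart.

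**Figure D1:**
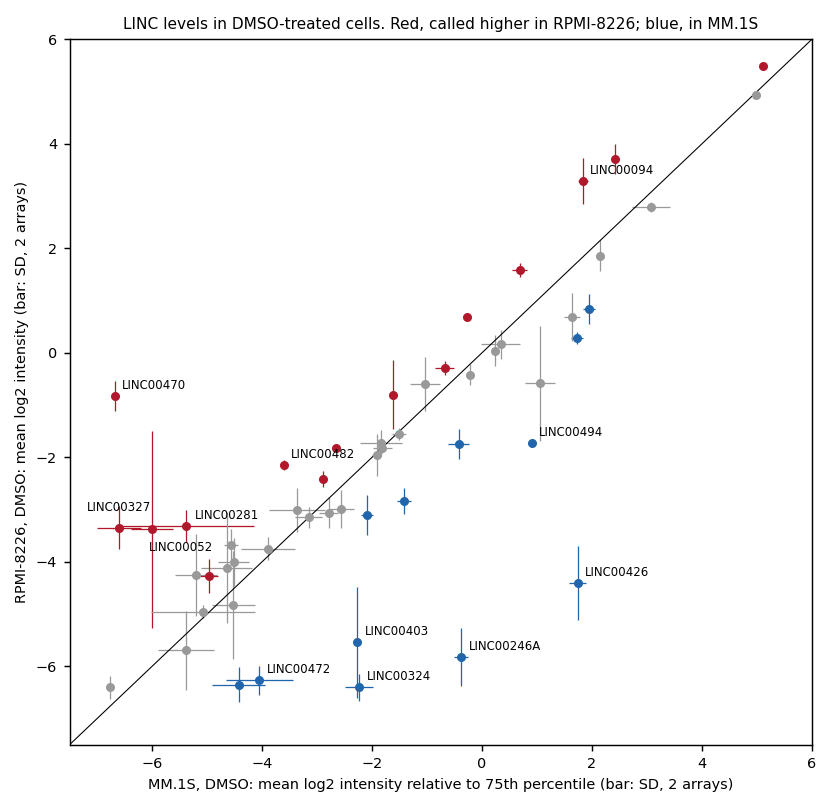
Mean log2 level of 53 members on the 2 DMSO arrays of MM.1S (x) and RPMI-8226 (y), with bars for the SD of the 2 arrays and a line of equal levels. Points near the line at the upper right are members with like levels in both lines, and the labelled points far from it, such as LINC00470 and LINC00426, were at or near background in 1 line.

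In RPMI-8226 cells the combination treatment changed 4 members by limma without a replicate block, and none was so called with either inhibitor alone. With the replicate number as a block, LINC00261 and LINC00346 were called with GSK126 alone, as given below. With both inhibitors LINC00261 and LINC00346 rose from below background, LINC00085 rose and LINC00482 fell. In this line LINC00261 and LINC00346 were above background on both arrays only with GSK126 and with the combination. They were thus tested only through groups in which they were high. The 3 called higher compare with 7.2% of all 23199 probes tested, and the 1 called lower with 5.17%. Over the 44 members tested the median change was 0.02, against -0.13 over all probes, and the former was -0.07 with quantile normalization and -0.15 without DMSO replicate 1. Scaling to the 75th percentile over probes above background on all 16 arrays moved the median of all probes up by 0.13 and left 3 called higher and 1 lower. Their 60-base probes, as the files give them on GRCh37, are shown because each value below is the brightness of that sequence. They lie at chr20:22541381-22541440 (minus strand, LINC00261), chr13:111521800-111521859 (minus, LINC00346), chr19:52208352-52208411 (plus, LINC00085) and chr17:79276637-79276696 (minus, LINC00482).
LINC00261: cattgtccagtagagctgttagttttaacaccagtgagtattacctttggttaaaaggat
LINC00346: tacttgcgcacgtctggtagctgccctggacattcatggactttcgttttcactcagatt
LINC00085: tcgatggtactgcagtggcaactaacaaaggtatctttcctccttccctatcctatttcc
LINC00482: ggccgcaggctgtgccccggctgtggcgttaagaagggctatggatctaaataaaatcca

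LINC00261 is transcribed from beside FOXA2, the gene of a transcription factor of the endoderm, and is known from endoderm differentiation. In RPMI-8226 cells its level was -6.56 and -6.25 in DMSO, -2.63 and -2.10 with GSK126, -5.69 and -2.42 with UNC0638, and -1.46 and -0.21 with GSK126 + UNC0638. Both arrays with GSK126 and both with the combination lay above DMSO, and the 2 UNC0638 arrays differed from each other by more than any other pair, with 1 of them above background. The combination raised it at least 11.8-fold (limma adjusted p = 0.0175). In MM.1S cells it read between -6.92 and -6.71 on all 8 arrays, and none was above background. LINC00346 (PRECSIT) read -4.86 and -5.05 in DMSO, -3.11 and -3.69 with GSK126, -4.36 and -4.80 with UNC0638 and -3.01 and -3.78 with the combination, which was at least 2.0-fold above DMSO (limma adjusted p = 0.0275). Its levels with GSK126 and with the combination were alike on these arrays.

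LINC00085 was above background on all 16 arrays. It read -1.77 and -1.89 in DMSO, -0.83 and -1.23 with GSK126, -1.60 and -1.78 with UNC0638 and -0.79 and -0.86 with the combination, a rise of 1.00 ± 0.18 (limma adjusted p = 0.0171). LINC00482 read -2.22 and -2.09 in DMSO, -2.40 and -2.37 with GSK126, -2.53 and -2.67 with UNC0638 and -3.49 and -3.45 with the combination, and fell by 1.32 ± 0.13 (limma adjusted p = 0.0025). No treated array of LINC00482 reached the DMSO values, and both combination arrays lay below all others. The calls of LINC00261 and LINC00085 were lost without any 1 of the DMSO or combination arrays (adjusted p up to 0.0821 for LINC00261 and 0.0983 for LINC00085). That of LINC00346 was lost without either DMSO array or without combination replicate 1 (up to 0.129) and with quantile normalization (0.0583), normexp (0.218) or no filter (0.0651). Without DMSO replicate 1, DMSO replicate 2 or combination replicate 1, 1 member was called in place of 4.

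For GSK126 alone in RPMI-8226 cells limma called 0 of the 44 members, with 3 at an unadjusted p under 0.05 (LINC00085, LINC00261 and LINC00346), while it called 0.547% of all probes higher and 0.0517% lower. The labels do not say what a shared replicate number marks, and in this line the numbers were taken to pair the samples. With the replicate number as a block LINC00261 (limma adjusted p = 0.0487) and LINC00346 (adjusted p = 0.0166) were called higher. These are 2 of 44, against 2.21% of all probes in either direction. With GSK126 LINC00261 was at least 4.08-fold and LINC00346 at least 1.99-fold above DMSO. For UNC0638 alone limma called 0 of 44, with 3 at an unadjusted p under 0.05 (LINC00482, LINC00239 and LINC00281) and 0 with the block, where 0.556% of all probes were higher and 0.0776% lower. LINC00482 was 0.45 ± 0.13 lower with UNC0638 (adjusted p = 0.313). With both inhibitors the block added LINC00511, another RNA reported to bind EZH2 (change of 0.81 ± 0.34, limma adjusted p = 0.161 without and 0.0363 with the block). LINC00511 was above background on 1 of the 2 DMSO arrays. The block then called 5 of 44 members and 4759 of all 23199 probes, against 4 and 2870 without it.

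Set directly against each inhibitor in RPMI-8226 cells, the combination lowered LINC00482, which fell by 1.08 ± 0.13 from its level with GSK126 (limma adjusted p = 0.0116) and by 0.87 ± 0.13 from that with UNC0638 (adjusted p = 0.0230). It was the only member called in either comparison, in which 2.55% and 3.39% of all probes were called. With the block, LINC00085, LINC00261 and LINC00346 were also called against UNC0638, 4 of 44 where 6.81% of all probes were. With the other percentile 1 member was called higher and 1 lower against UNC0638, and with normexp 3 higher and 0 lower. The call against GSK126 was lost without GSK126 replicate 1 or combination replicate 1 and with normexp. The call against UNC0638 was lost without any 1 of the 4 UNC0638 and combination arrays, with no filter and with normexp. LINC00340 (CASC15) read 0.36 and 1.01 in DMSO and 3.39 and 1.64 with the combination, a change of 1.83 ± 0.54 that did not pass (adjusted p = 0.0717).

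**Figure D2:**
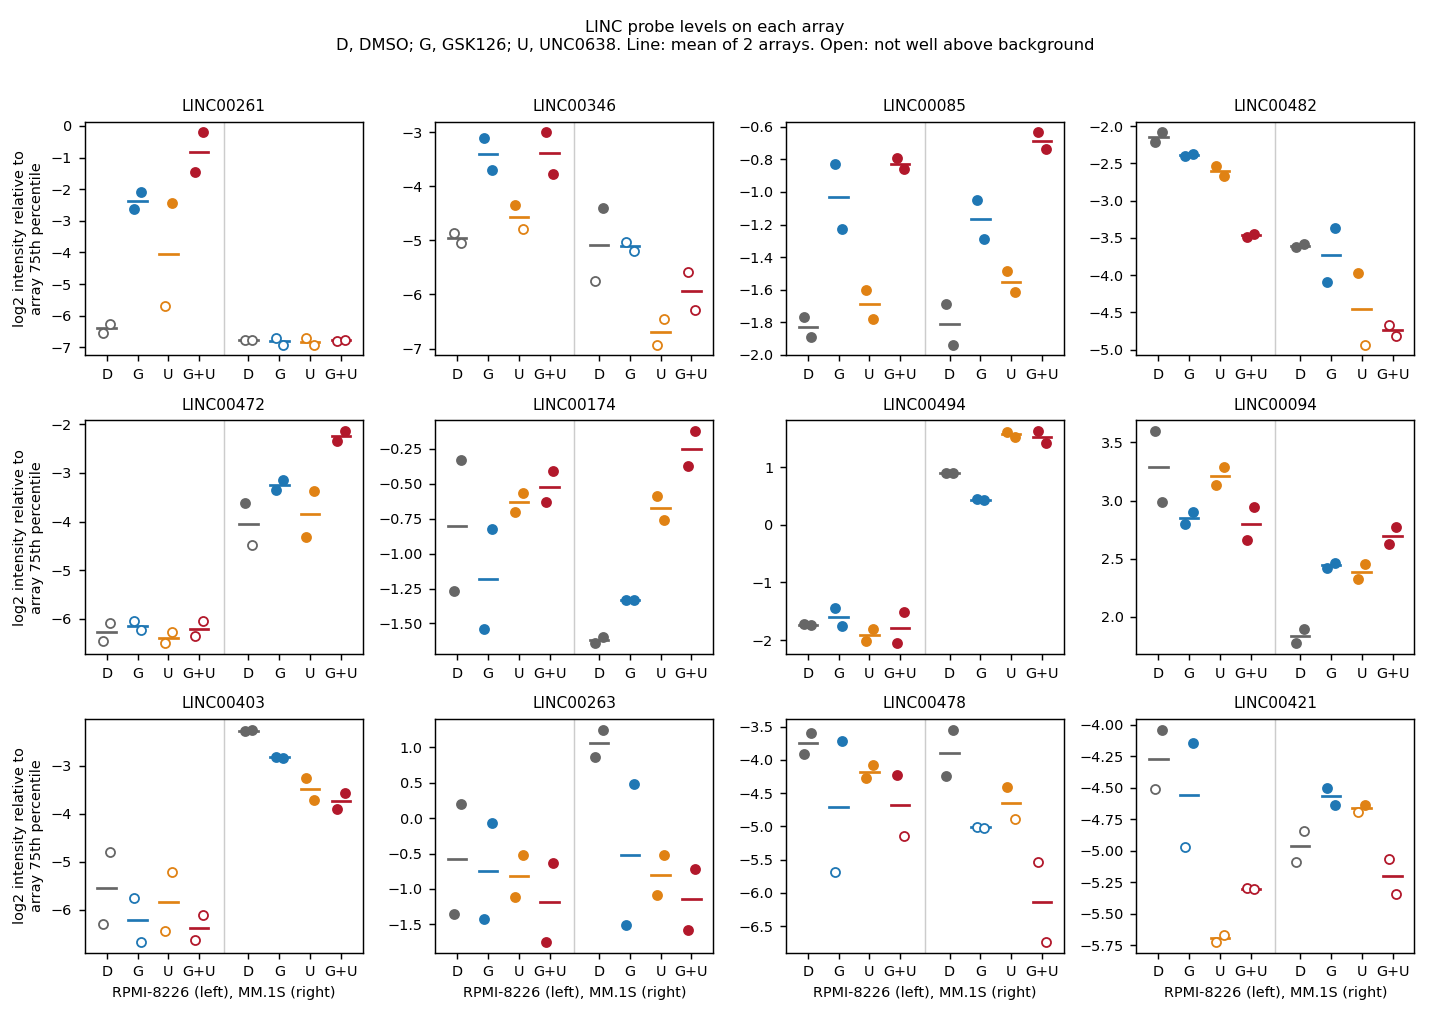
Log2 level, relative to the array's 75th percentile, of 12 LINC probes on each of 16 arrays, with RPMI-8226 left and MM.1S right of the grey line in each panel and the axis range set per panel. Points are arrays (open where not well above background) and bars are means of 2. LINC00261 is filled only among treated RPMI-8226 arrays, LINC00482 has its lowest mean with both inhibitors in each line, and LINC00494 moves down with GSK126 and up with UNC0638 in MM.1S.

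In MM.1S cells the combination treatment changed 21 of the 45 members tested, 10 upward and 11 downward. Among all 25102 probes 22.2% were higher and 31.7% lower, so the members' share upward equalled that of all probes and their share downward was smaller. The median change was -0.08 over the members and -0.12 over all probes. With the percentile over detected probes, which moved the median of all probes up by 0.18, these medians turned to 0.10 and 0.07 and the calls were 14 higher and 5 lower. Without DMSO replicate 1, 12 members were called. Of the 36 members above background on all 8 arrays of the line, 17 were called, 8 higher and 9 lower. The share called among all probes above background on these 8 arrays was not taken, so this count has no share beside it.

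The rises were led by LINC00472, a spliced RNA reported as a tumour suppressor in breast cancer. LINC00472 was above background on both arrays only in the treated groups of MM.1S cells, so it was tested only through these groups. Its probe (chr6:72124298-72124357, minus strand) is printed with that of LINC00494 (chr20:46999255-46999314, plus strand), since these are the RNAs whose response to the 2 inhibitors is set side by side below.
LINC00472: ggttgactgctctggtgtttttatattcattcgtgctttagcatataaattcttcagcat
LINC00494: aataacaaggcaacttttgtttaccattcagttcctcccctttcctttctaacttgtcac

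LINC00472 read -3.62 and -4.48 in MM.1S cells with DMSO, -3.35 and -3.14 with GSK126, -4.31 and -3.36 with UNC0638 and -2.35 and -2.14 with the combination, a rise of 1.81 ± 0.38 (limma adjusted p = 0.00921). The call was lost without combination replicate 2 (adjusted p = 0.0532), and 1 DMSO array was above background. LINC00202 (FAM238C) read -4.77 and -4.09 in DMSO and -3.02 and -2.93 with the combination, and rose by 1.45 ± 0.28. It was above background on both arrays only with GSK126 and with the combination, so it was tested only through these groups. LINC00174 read -1.64 and -1.60 in DMSO, -1.33 and -1.33 with GSK126, -0.59 and -0.76 with UNC0638 and -0.37 and -0.12 with the combination, a rise of 1.37 ± 0.11 (limma adjusted p = 4.01e-04). Its 4 groups did not overlap with each other and stood in that order. LINC00085 rose by 1.13 ± 0.13, LINC00094 by 0.86 ± 0.10 and LINC00494 by 0.62 ± 0.10, all with both combination arrays above both DMSO arrays. The other members called higher were LINC00324, LINC00239, LINC00339 and LINC00294, with changes between 0.32 and 0.60.

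The falls were led by LINC00478 (MIR99AHG), which read -4.24 and -3.54 in DMSO and -5.53 and -6.74 with the combination and fell at least 1.95-fold, with no combination array above background (limma adjusted p = 0.00623). LINC00263 (OLMALINC, known from oligodendrocytes) read 0.86 and 1.25 in DMSO and -1.58 and -0.72 with the combination, and fell by 2.20 ± 0.66 (limma adjusted p = 0.0316). Replicate 1 was the lower array of LINC00263 in every group of both lines, most with GSK126 in MM.1S cells (-1.51 against 0.48). Leaving out any 1 of 5 arrays or the filter (limma adjusted p = 0.0835 without the filter) ended its call. LINC00403 (SOX1-OT) read -2.28 and -2.25 in DMSO, -2.81 and -2.83 with GSK126, -3.25 and -3.72 with UNC0638 and -3.90 and -3.57 with the combination, and fell by 1.47 ± 0.18. LINC00482 read -3.63 and -3.59 in DMSO and -4.66 and -4.82 with the combination, at least 2.14-fold lower (limma adjusted p = 0.0369). That call was lost without any 1 of the DMSO or combination arrays (up to 0.141), with the other percentile (0.0701) and with no filter (0.0960).

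LINC00086 fell by 0.68 ± 0.19 and LINC00355 by 0.63 ± 0.12. The probes of LINC00086 and LINC00087 are almost the same sequence, so each may also bind the RNA of the other, and this was not tested. LINC00087 changed by -0.25 in the same comparison and was not called. The LINC00086 call was lost without either DMSO array or combination replicate 2 (adjusted p of up to 0.113), with the other percentile (0.0688) and without a filter (0.0684). The other members called lower were LINC00260, LINC00152, LINC00338, LINC00277 and LINC00493, which fell by 0.30 to 0.53. LINC00152 went from 4.99 and 5.00 in DMSO to 4.6 and 4.49 and fell by 0.45 ± 0.08 (limma adjusted p = 0.00592). LINC00152 has a near-identical copy in the genome, MIR4435-2HG, whose RNA the probe may also bind, and this was not tested. LINC00511, the other member reported to bind EZH2, changed by -0.08 ± 0.24 and was not called, nor was the microRNA host LINC00461 in any comparison.

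**Figure D3:**
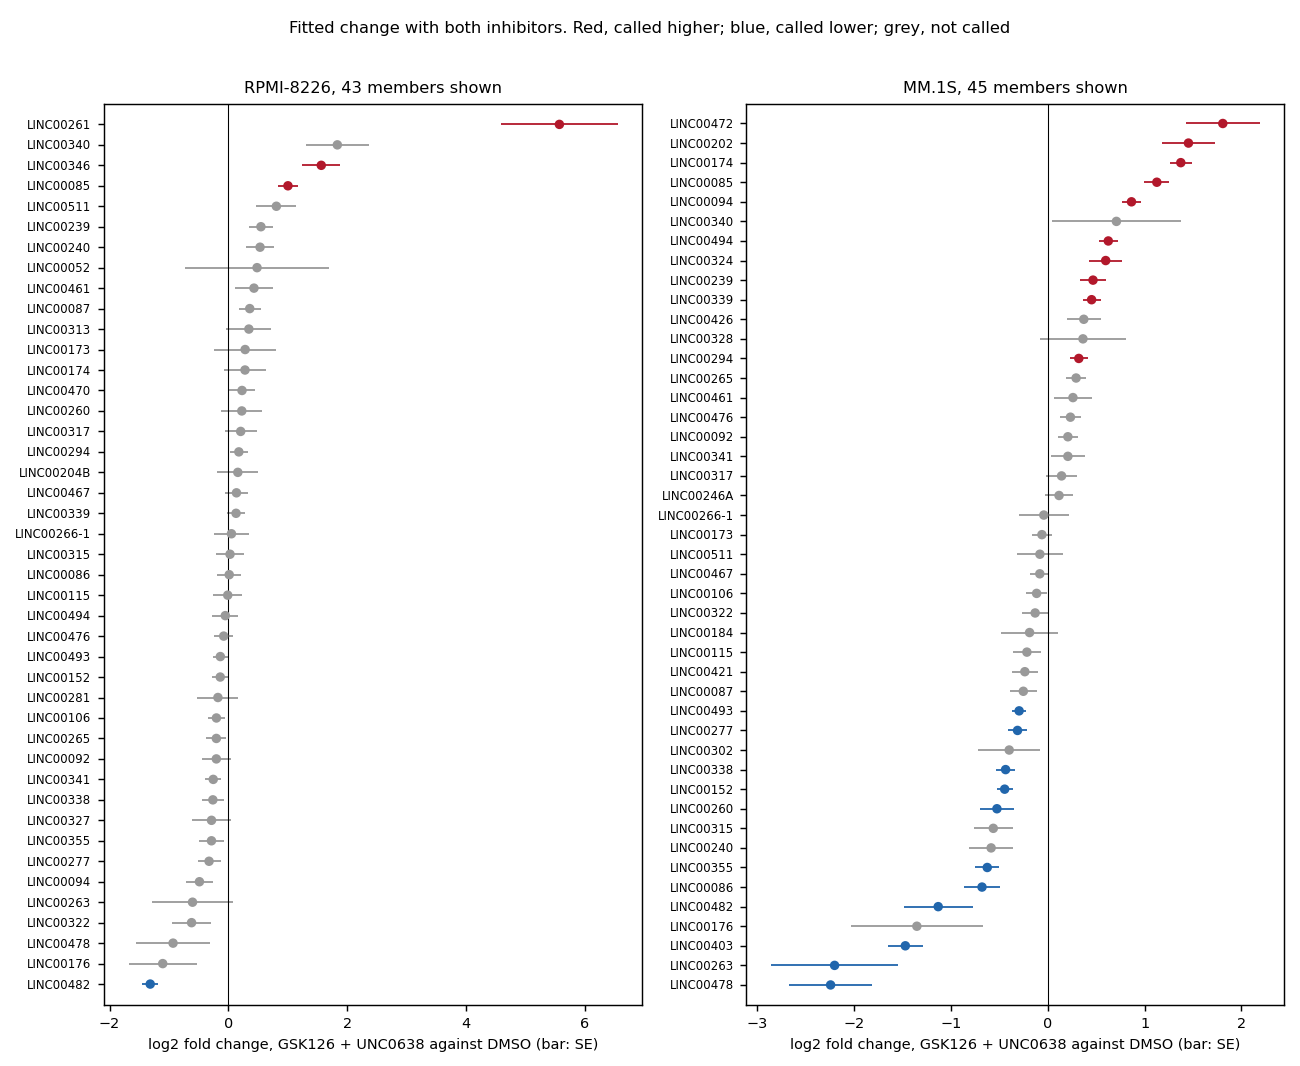
Fitted log2 fold change of each tested member with GSK126 + UNC0638 against DMSO, with bars for the SE, in RPMI-8226 (43 members shown) and MM.1S (45). Points are red where called higher and blue where called lower, 4 in RPMI-8226 and 21 in MM.1S, and most grey points in RPMI-8226 lie within 1 of 0.

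Each inhibitor alone changed fewer members in MM.1S cells. GSK126 raised 2 of 45, LINC00085 by 0.64 ± 0.13 (limma adjusted p = 0.0425) and LINC00094 by 0.61 ± 0.10 (adjusted p = 0.0229), and lowered LINC00494 by 0.46 ± 0.10 (adjusted p = 0.0444), where 5.19% of all probes were higher and 2.39% lower. These calls are close to the threshold. That of LINC00085 was lost without any of the 8 arrays (adjusted p of up to 0.183) and that of LINC00494 without any of 6 (up to 0.169), both also with quantile normalization or no filter, and that of LINC00094 without any of 5 (up to 0.110) or with no filter. Without DMSO replicate 1, DMSO replicate 2, GSK126 replicate 1 or UNC0638 replicate 2 limma called 0 members, in place of 3. With the other percentile 2 were called higher and 0 lower, and with quantile normalization 1 and 0.

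UNC0638 raised 5 of 45 members and lowered 2 in MM.1S cells, where 12.8% of all probes were higher and 16.5% lower. With the other percentile the split was 6 and 1, and with normexp 5 and 4. LINC00174 rose by 0.95 ± 0.11 (limma adjusted p = 0.00394), LINC00494 by 0.67 ± 0.10 and LINC00094 by 0.56 ± 0.10. LINC00339 rose by 0.34 ± 0.09. LINC00184 read -5.74 and -5.02 in DMSO, -4.22 and -4.31 with UNC0638 and -5.28 and -5.86 with the combination, and rose at least 1.44-fold with UNC0638 (limma adjusted p = 0.0351). Of the groups of this line, LINC00184 was above background on both arrays only with UNC0638, so it was tested only through the group in which it was high. Its call was lost with quantile normalization (0.0873), no filter (0.0980) and normexp (change of 0.16, adjusted p = 0.196), and also with the replicate block. LINC00403 fell by 1.22 ± 0.18 and LINC00355 by 0.54 ± 0.12. The calls of LINC00184, LINC00339, LINC00355 and LINC00094 were lost when any 1 of 5, 7, 3 and 2 arrays was left out, the highest adjusted p being 0.136, 0.157, 0.112 and 0.0653. The call of LINC00355 was also lost with the other percentile (0.0512) and no filter (0.0762), and that of LINC00339 with no filter (0.120). Without UNC0638 replicate 2 the count was 4.

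LINC00494 was called in opposite directions with the 2 inhibitors. In MM.1S cells it read 0.91 and 0.90 in DMSO, 0.45 and 0.42 with GSK126, 1.62 and 1.53 with UNC0638, and 1.63 and 1.42 with the combination. The GSK126 arrays lay below all others, and those of UNC0638 and the combination overlapped. In RPMI-8226 cells it read between -2.06 and -1.45 on all 8 arrays and was not called in any comparison. LINC00426, bright in MM.1S cells, read 1.63 and 1.85 in DMSO, 0.88 and 1.29 with GSK126 and 2.18 and 2.44 with UNC0638. Its changes of -0.66 ± 0.17 (limma adjusted p = 0.0762) and 0.57 ± 0.17 (adjusted p = 0.0544) did not pass, but both were called with the replicate number as a block.

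Compared directly in MM.1S cells, the combination differed from GSK126 in 11 members, 8 higher and 3 lower, and from UNC0638 in 6, 3 higher and 3 lower, with 37.1% and 13.5% of all probes called. Against GSK126 the largest rises were those of LINC00494 (1.09 ± 0.10, limma adjusted p = 0.00153), LINC00174 (1.08 ± 0.11), LINC00426 (1.03 ± 0.17) and LINC00239 (0.98 ± 0.14), and LINC00403 fell by 0.92 ± 0.18. Against UNC0638, LINC00472 was higher by 1.59 ± 0.38, LINC00202 at least 2.94-fold and LINC00085 by 0.86 ± 0.13, while LINC00338 was lower by 0.49 ± 0.09 and LINC00184 and LINC00421 at least 1.51-fold and 1.14-fold. The count against UNC0638 fell to 0 without UNC0638 replicate 1, UNC0638 replicate 2 or combination replicate 2, and that against GSK126 to 6 without GSK126 replicate 1. With the other percentile the splits were 12 and 3 against GSK126 and 5 and 0 against UNC0638, the latter 5 and 1 with normexp. In all, 24 of the 54 members were called in at least 1 comparison of a treatment with DMSO, against 56.8% of all probes tested, and 16 of the 24 only with both inhibitors, against 47.2% of the probes so called. The comparisons of a line share its DMSO arrays. Only LINC00094 and LINC00494 were called in all 3 comparisons of MM.1S cells.

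**Figure D4:**
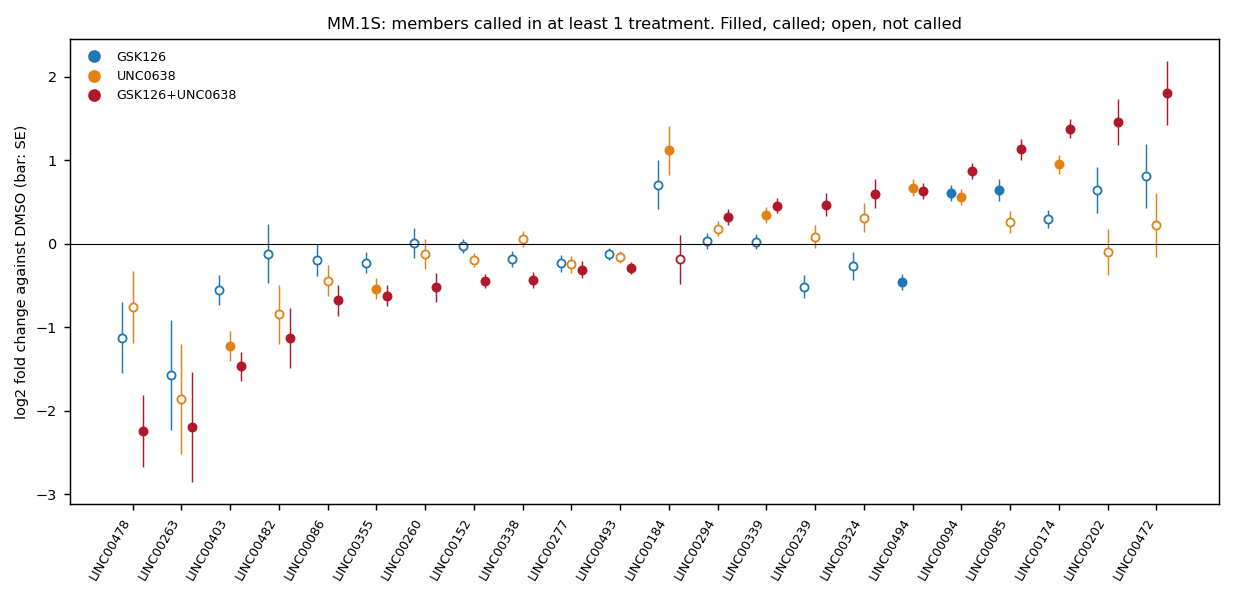
Log2 fold change against DMSO in MM.1S with each treatment, with bars for the SE, for the 22 members called in at least 1 of the 3 comparisons and ordered by the change with both inhibitors. Filled points were called. LINC00174 and LINC00403 have filled points for UNC0638 and the combination, and LINC00494 has filled points on both sides of 0.

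With both inhibitors 2 members were called in both lines, LINC00085 upward and LINC00482 downward, of 35 tested in both, where 7.13% of all probes tested in both were called in the same direction. LINC00085 rose by 1.00 ± 0.18 in the former line and by 1.13 ± 0.13 in the latter, from DMSO levels of -1.83 ± 0.09 (SD, n = 2) and -1.81 ± 0.18. LINC00085 is the single member with a probe on chromosome 19.

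Whether a response differed between the lines was tested as a difference of the 2 changes over all 16 arrays. No member differed with GSK126 by limma, with 4 at an unadjusted p under 0.05, where 0.783% of all probes were called. With UNC0638, 1 member of 54 was called (2.89% of all probes), LINC00421, and with both inhibitors 4 were (13.3% of all probes), LINC00261, LINC00346, LINC00094 and LINC00472. The latter split was 2 higher and 2 lower in RPMI-8226 cells relative to MM.1S cells, and 2 and 4 with normexp. Without RPMI-8226 DMSO replicate 1 the count was 7, and without RPMI-8226 combination replicate 1 or MM.1S combination replicate 2 it was 2. LINC00094 is the single one of these above background on every array. It read 3.60 and 2.98 in RPMI-8226 cells with DMSO and 2.66 and 2.94 with the combination, and in MM.1S cells 1.77 and 1.90 and then 2.63 and 2.77. Its change was -0.49 in the former line (not called) and 0.86 in the latter, a difference of -1.35 ± 0.26 (limma adjusted p = 0.00843). LINC00261 was not above background on any MM.1S array and LINC00472 on no RPMI-8226 array. LINC00346 was above background on 1 MM.1S array, and LINC00421 on 2 arrays of RPMI-8226 cells and 3 of MM.1S cells, of which 1 was a UNC0638 array. For these 4 the change in the dim groups is not measured. The fitted difference of the changes then gives no size, and its direction holds only for the fitted values.

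For each member, the nearest probe of another named gene kept in the same line was looked up by position on GRCh37. In RPMI-8226 cells the median distance was 18.3 kb over 43 members, and the signs of the changes with both inhibitors were the same for 23 pairs. In MM.1S cells it was 10.3 kb over 45 members, with the same sign in 24 pairs. Of the members called, 2 of 4 in the former line and 10 of 21 in the latter had a neighbour called in the same direction, and 0 and 3 had one called in the opposite direction. Over all other named genes called in RPMI-8226 cells, the nearest neighbour was called in the same direction for 20.2% and in the opposite one for 2.41%, and in MM.1S cells for 34.7% and 20.6%. Unannotated transcripts count as genes here where the files give them a name. With neighbours limited to protein-coding genes, 9 of the 21 had one called in the same direction and 5 in the opposite one. The shares above are for neighbours of any name. No such share was taken for protein-coding neighbours, so these 2 counts have nothing to be set against.

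FOXA2, a pioneer transcription factor of endoderm, is the nearest gene to LINC00261, with 20.8 kb between the probes. In RPMI-8226 cells FOXA2 read -2.68 and -1.28 in DMSO, 0.65 and 0.47 with GSK126, -1.57 and 0.00 with UNC0638 and 0.37 and 1.20 with the combination, and rose by 2.77 ± 0.63 (limma adjusted p = 0.0382). FOXA2 was above background on all 8 RPMI-8226 arrays and on no MM.1S array, so the line without LINC00261 signal was also without FOXA2 signal. ANKRD10, 9.65 kb from LINC00346, rose by 0.76 ± 0.18 in RPMI-8226 cells (adjusted p = 0.0427). BRD3, which encodes a bromodomain protein that reads acetylated histones, has its probe 5.14 kb from that of LINC00094. In MM.1S cells BRD3 read 0.08 and 0.28 in DMSO, 1.00 and 0.90 with GSK126, 0.99 and 1.02 with UNC0638 and 1.37 and 1.40 with the combination, a rise of 1.20 ± 0.09 (adjusted p = 3.69e-04). In RPMI-8226 cells it stayed between 1.78 and 2.09.

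Among the nearest protein-coding neighbours of other members in MM.1S cells, OGFRL1, 112.5 kb from LINC00472, rose by 1.33 ± 0.14, FPR1, a receptor of phagocytes 40.8 kb from LINC00085, by 1.89 ± 0.63 (adjusted p = 0.0458), and TPST1, 16.02 kb from LINC00174, by 0.82 ± 0.13. SEC14L1, 1.58 kb from LINC00338, fell by 0.76 ± 0.08. In the opposite direction to their neighbour, CTC1, a telomere maintenance gene 5.765 kb from LINC00324, fell by 0.45 ± 0.08, and a probe of CDC42, a small GTPase gene 58.9 kb from LINC00339, fell by 1.75 ± 0.19. SCD, the desaturase gene 18.95 kb from LINC00263, changed by 0.09 ± 0.09 and was not called. The nearest probe to LINC00263, named XLOC_008583, fell by 2.53 ± 0.68 (adjusted p = 0.0219). As for LINC00263, replicate 1 was the lower array of XLOC_008583 in every group of both lines.

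**Figure D5:**
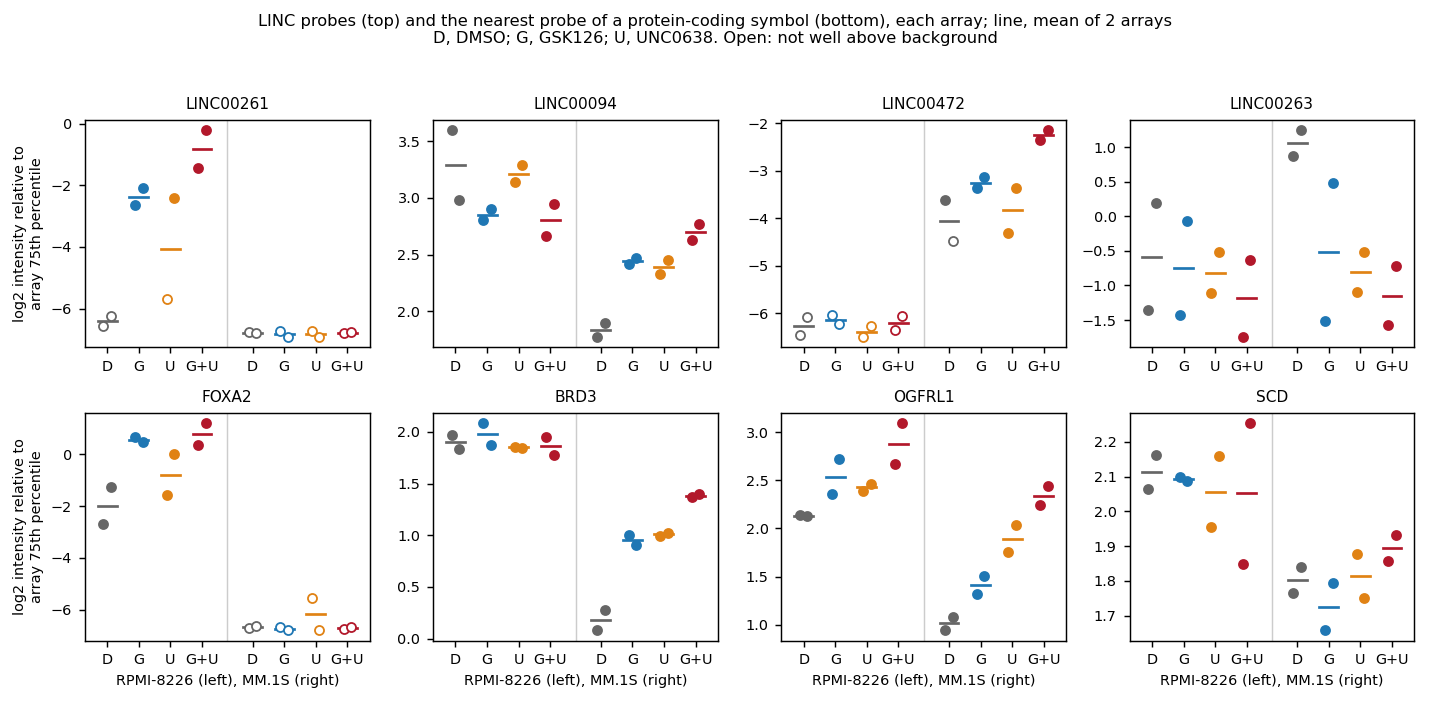
Log2 levels of 4 LINC probes (top) and of the nearest kept probe of a protein-coding gene (bottom) on each array, RPMI-8226 left and MM.1S right in each panel, with open points not well above background and bars for the mean of 2 arrays. FOXA2 and LINC00261 are both filled in RPMI-8226 only, BRD3 and LINC00094 are both lowest with DMSO among the MM.1S groups, and SCD has no such step beside LINC00263.

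Of the members, 29 have more than 1 probe on the array, which allows a check within a gene. In MM.1S cells the 6 kept probes of LINC00472 all had positive changes with the combination, between 0.55 and 2.28, and 3 were called. Those lying between positions 72126143 and 72126223 overlap each other and are not separate checks. Both kept probes of LINC00263 fell, by 2.20 and 2.62, and both of LINC00085 (1.13 and 1.70) and LINC00174 (0.71 and 1.37) rose. LINC00173 was not called at the brightest probe (-0.06) but was called higher at both other probes (0.49 and 0.65). LINC00265 also depended on the probe, with 3 of 6 called higher, between 0.31 and 0.78, and a change of -0.49 at another that was not called. The brightest probes of LINC00476 (0.23), LINC00426 (0.37) and LINC00087 (-0.25) were not called either. Other probes of these genes were called, at 0.35 and 0.79 for LINC00476, 0.38 for LINC00426 and -0.46 for LINC00087.

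The 300 bases around the RefSeq start (GRCh38.p14), mostly upstream of it, were taken as the promoter of 37 members that the RefSeq table held, and CG dinucleotides, the site of DNA methylation, were counted. The members had a median of 7 CG per promoter, against 14 over all 35116 promoters, and 40.5% of them held 10 or more, against 56.4%. The 8 promoters of members called higher in MM.1S cells with both inhibitors had a median of 4, the 10 of members called lower 5.5, and the 13 of members tested and not called 19. These counts are descriptive, were looked up after the calls were known, and depend on which start RefSeq places first. The promoters of LINC00261, which holds 8, and of LINC00472, which holds 31, are printed because these RNAs led the rises in RPMI-8226 and MM.1S cells, at chr20:22578593-22578892 and chr6:71420696-71420995 of GRCh38.p14, both on the minus strand, with each CG in capitals.
LINC00261: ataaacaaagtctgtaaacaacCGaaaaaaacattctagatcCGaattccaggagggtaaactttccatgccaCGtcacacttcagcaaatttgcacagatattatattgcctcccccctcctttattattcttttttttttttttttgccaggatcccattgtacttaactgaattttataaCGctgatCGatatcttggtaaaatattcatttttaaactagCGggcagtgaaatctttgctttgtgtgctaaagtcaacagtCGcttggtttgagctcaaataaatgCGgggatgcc
LINC00472: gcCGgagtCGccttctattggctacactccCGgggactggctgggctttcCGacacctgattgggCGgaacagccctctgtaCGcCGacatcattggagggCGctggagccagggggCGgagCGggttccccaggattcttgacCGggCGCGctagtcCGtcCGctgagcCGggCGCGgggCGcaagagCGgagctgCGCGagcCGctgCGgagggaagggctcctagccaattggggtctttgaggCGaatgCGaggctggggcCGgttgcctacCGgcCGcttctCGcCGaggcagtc

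Of the hand-written lists, 2 of 5 LINC RNAs reported to bind EZH2 were on the array (LINC00152 and LINC00511, both members), 1 of 7 lymphoid or myeloid LINC RNAs (LINC00487, not a member) and 2 of 3 microRNA hosts (LINC00478 and LINC00461, both members). With both inhibitors 1 of the 2 EZH2-binding members was called lower in MM.1S cells and none in RPMI-8226 cells without the block, and of the hosts LINC00478 was called lower in MM.1S cells and neither in RPMI-8226 cells.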

How the data were processed

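Cy3-labelled cRNA from 16 samples was hybridised to SurePrint G3 Human GE v2 arrays, 1 sample per array. The authors deposited the scanner output (Agilent Feature Extraction 10.7, per the submitters' processing notes), which gives background-subtracted linear intensities, and a table of the same intensities at 3 significant digits (99.9956% of 939472 values equal). GRCh37 probe positions are those of the files.

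Control spots and outlier spots were left out. Log2 intensities minus the 75th percentile of the array were averaged per probe, and a probe was kept if any group had it above background on each of its arrays. limma 3.58.1 (R 4.3.3; lmFit and eBayes, Benjamini-Hochberg) was fitted over the 8 arrays of a line, or over 16 arrays for differences between lines, and was tested on simulated data. The number of arrays limits the precision, and p-values measure the spread between these samples.

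Arrays of RPMI-8226 cells with the same replicate number in the labels deviated together in 6 of 6 pairs of groups (r between 0.254 and 0.415), and the numbers were taken to pair the samples. Named members are the 6 called members with the largest rise or fall per comparison, those called in both lines, the 8 with the highest probe signal per line, the 6 per direction called between lines, called response differences, list members and nearest neighbours. Others in a group were named after their values were seen. Members and lists were chosen with earlier results of these data known. The alternatives were quantile normalization, another percentile, normexp (offset 50), other filters, the series table, the replicate block, mean over probes and each array left out.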

Additional observations from a re-analysis of the deposited data

Results flagged for a closer look

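The response to treatment differed between the lines for 5 results, each by limma's test of the difference itself (RPMI-8226 minus MM.1S, log2 scale). With GSK126 + UNC0638 the difference was 5.58 ± 1.12 (SE) for LINC00261 (adjusted p = 0.0109), 2.42 ± 0.62 for LINC00346 (adjusted p = 0.0290), -1.35 ± 0.26 for LINC00094 (adjusted p = 0.00843) and -1.74 ± 0.46 for LINC00472 (adjusted p = 0.0349). With UNC0638 alone it was -1.73 ± 0.34 for LINC00421 (adjusted p = 0.0287). All but LINC00094 were below background on several arrays of at least 1 line. Their fitted values therefore give no size, and a change below background could differ from the fitted direction. After normexp background correction the differences for LINC00346 and LINC00421 were 0.50 (adjusted p = 0.130) and -0.36 (adjusted p = 0.230). Leaving out any 1 of 4 arrays ended the call of LINC00346 (adjusted p of up to 0.106), any 1 of 7 that of LINC00421 (up to 0.0969) and any 1 of 8 that of LINC00472 (up to 0.115). The cause of these differences was not tested.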

How the results depend on the processing

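No named change turned direction under any alternative run, but median changes over the members did. With the other percentile that of GSK126 in MM.1S cells went from -0.07 to 0.0022, with no filter that of UNC0638 from 0.06 to -0.04, and without RPMI-8226 DMSO replicate 2 those of GSK126 and UNC0638 in that line from -0.10 to 0.09 and from -0.07 to 0.04. With the series table every count of members called stayed within 1.5 times its main value. Quantile normalization called 1 member for GSK126 in MM.1S cells and 0 for the difference of the UNC0638 response, and the percentile over detected probes called 2 for the combination against UNC0638 in RPMI-8226 cells. Normexp called 5 for GSK126 in MM.1S cells, and 0 and 3 for the combination against GSK126 and UNC0638 in RPMI-8226 cells. Without a filter limma called 0, 4 and 12 members for GSK126, UNC0638 and the combination in MM.1S cells. Calls over all probes fell as well, from 1903, 7363 and 13520 to 419, 3791 and 10824. Without a filter it also called 0 members for the combination against UNC0638 in either line. For the differences of the UNC0638 and combination responses it called 0 and 2. With only probes above background on all arrays, in which fewer members were tested, it called 2 for the combination in RPMI-8226 cells, 3 for the combination against UNC0638 in MM.1S cells, 15 between the DMSO groups, and 0 and 2 for these differences of response. Averaging a gene's probes gave 3 for the combination against UNC0638 in RPMI-8226 cells. With the replicate block, 2 were called for GSK126 and 4 for the combination against UNC0638 in RPMI-8226 cells. For MM.1S, where same-numbered arrays correlated above 0.1 in 5 of 6 pairs, the block called 5 for GSK126 and changed no other count by over 1.5 times. It called LINC00426 lower with GSK126 (adjusted p = 0.0211) and higher with UNC0638 (0.0111), and lost LINC00482 with both inhibitors (0.0572). For the combination against UNC0638 it called 4 higher and 1 lower, 3 of them shared with the fit without it.

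Leaving out 1 array gave, for GSK126, UNC0638 and the combination against DMSO, 0 to 0, 0 to 0 and 1 to 6 members in RPMI-8226 cells and 0 to 2, 4 to 7 and 12 to 21 in MM.1S cells. The combination against GSK126 and UNC0638 gave 0 to 2 and 0 to 2 in RPMI-8226 cells and 6 to 13 and 0 to 4 in MM.1S cells. The DMSO groups gave 24 to 29, and the differences of the GSK126, UNC0638 and combination responses 0 to 1, 0 to 2 and 2 to 7. A lone remaining array was assumed to vary like the other groups. No slide block was fitted, as each line may lie on 1 slide. The causes were not tested.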
